A study of Danio rerio with 2 samples.

Results

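The genes described here are 10 vascular endothelial receptors and regulators of the zebrafish (Danio rerio), the transcripts by which the inner lining of blood and lymph vessels is usually recognised. They were chosen by name: kdrl, kdr, flt1, flt4, cdh5, fli1a, tie1, etv2, egfl7 and stab2, each looked up on the arrays by its symbol or an older zebrafish symbol. Matching names were found on 18 of the 43839 spots that are not controls. Those spots carry 9 array names, and no spot carried a name of tie1.

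Embryos had been injected as ovulated eggs with 10.3 ng of a morpholino, an antisense oligonucleotide. MO2-ers2a is directed at estrogen receptor beta2 (ers2a in the labels), whose translation it blocks, and the comparison embryos received the same amount of MO-control. RNA was taken 48 or 8 hours after fertilization (hpf). At each time, RNA of MO2-ers2a embryos in Cy5 and RNA of MO-control embryos in Cy3 shared 1 2-colour Agilent array. There was no replicate and no dye swap, so no test between conditions was possible, and gene-specific dye bias and the morpholino cannot be told apart. A translation block need not lower the transcript, so arrays do not check the knockdown. How many embryos went into an RNA sample was not stated, and a morpholino acts in the whole embryo, not in endothelium alone.

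As background, vascular endothelial growth factors (VEGFs) act through receptor tyrosine kinases on endothelial cells. Kdrl and Kdr, the zebrafish counterparts of VEGF receptor 2, carry much of the signal for vessel sprouting. Flt1 binds VEGF-A and limits it, and Flt4 is the receptor for Vegfc in veins and lymphatic vessels. Etv2 and Fli1a are ETS-family transcription factors that set up and maintain endothelial identity. Cdh5 (VE-cadherin) joins endothelial cells to each other, Egfl7 is a protein that endothelial cells secrete, Stab2 is a scavenger receptor of veins, and Tie1 is a receptor that works beside the angiopoietin receptor Tek. In the gastrula, at 8 hpf, mesoderm is only being laid down, whereas at 48 hpf the trunk vessels carry blood.

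The names on these arrays are those of their design. The name kdr is today the symbol of one VEGF receptor gene and is also listed in RefSeq as an older symbol of its relative kdrl, while kdrb is an older symbol of today's kdr. Spots named kdr are therefore given under the array name, and whether they measure kdrl or kdr was not settled. Spots of etv2 carry the older name ets1b, and stab2 appears under a clone-based name. Signals below are background-subtracted scanner units per spot. A spot counted as measured when both channels exceeded limits set from 153 negative control spots, 27.7 for Cy5 and 70.1 for Cy3 on the 48 hpf array, and 24.4 for Cy5 and 59.9 for Cy3 on the 8 hpf array. Log2 ratios are MO2-ers2a over MO-control after normalization of the whole array, so 0 means the level expected for a spot of that brightness. Cy5 was the brighter dye, with a median ratio of Cy5 to Cy3 signal of 1.49 over measured spots at 48 hpf and 1.85 at 8 hpf, so raw signals do not give the ratio directly.

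At 48 hpf, 8 of the 9 array names were measured, and none of these 8 reached 2-fold in either direction. Their median log2 ratio was -0.06, with 3 above 0 and 5 below, against -0.02 over all 16630 measured features. A 2-fold difference was reached by 2.53% of all features at 48 hpf, so a count of 0 in 8 genes is near that background. The receptors lay close to 0, and the transcription factor fli1a stood lowest.

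The measured VEGF receptor spots lay near equal levels. The measured kdr spot had a signal of 941 in MO2-ers2a embryos and 626 in MO-control embryos, a log2 ratio of -0.09. The other kdr spot read 15 in MO2-ers2a and 36 in MO-control, below both limits. Only 1 of the kdr spots thus carries the ratio.

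The flt4 spots had signals of 270 and 90 in MO2-ers2a embryos, against 199.5 and 92 in MO-control embryos. Their log2 ratios were -0.04 and -0.07, a median of -0.05. For flt1, the measured spot read 255 in MO2-ers2a and 171 in MO-control, a log2 ratio of 0.10. Its other spot read 15.5 in MO2-ers2a and 29 in MO-control and was not measured. Both receptors thus lay within 0.10 of equal levels. The spots named kdrb, an older symbol of today's kdr, read 18.5 and 26.5 in MO2-ers2a and 64 and 66.5 in MO-control. All 4 of these values were under their limits, so the name gave no ratio at 48 hpf.

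Surface and secreted proteins gave similar values. For cdh5, which holds the vessel wall together, the measured spot read 373 in MO2-ers2a and 236 in MO-control, a log2 ratio of 0.10. For stab2, which clears hyaluronan and other ligands from the blood, it read 390.5 in MO2-ers2a and 279 in MO-control, a log2 ratio of -0.07. The single egfl7 spot had 2867 in MO2-ers2a and 1379 in MO-control. Its log2 ratio of 0.29 (1.22-fold higher) was the highest of the 8.

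**Figure D1:**
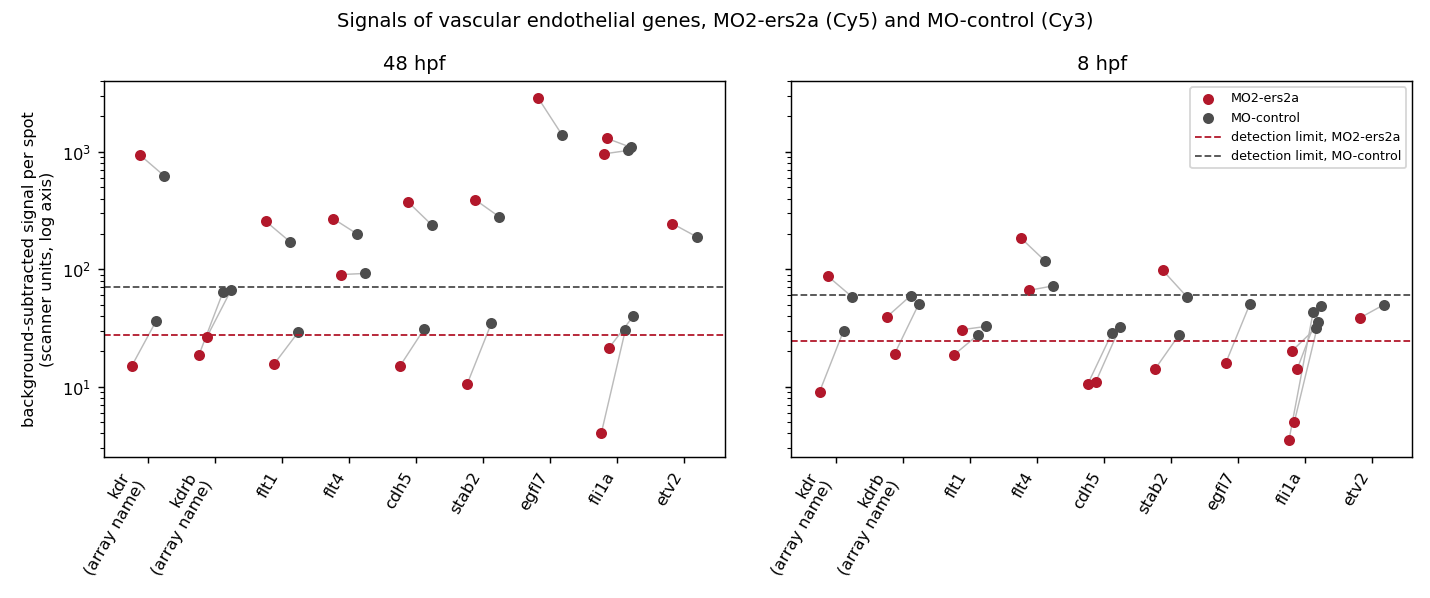
Background-subtracted signal of every spot of the vascular endothelial genes (vertical axis, scanner units, log axis) in MO2-ers2a (red) and MO-control (grey) embryos at 48 hpf (left) and 8 hpf (right), with a grey line joining the channels of a spot and dashed lines at the detection limits. At 48 hpf most names have a spot above both limits, while at 8 hpf only the flt4 spots do.

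Among the transcription factors, etv2, which acts at the start of endothelial specification, had 244.5 in MO2-ers2a and 189 in MO-control on its single spot, a log2 ratio of -0.08. The fli1a spots that were measured had signals of 960.5 and 1304.5 in MO2-ers2a embryos, against 1027.5 and 1092 in MO-control embryos. After normalization both lay below 0, at -0.77 and -0.45, a median of -0.61 (1.53-fold lower). In the authors' deposited log ratios, turned to log2, the same spots stood at -0.81 and -0.45. The remaining fli1a spots read 4 and 21.5 in MO2-ers2a, against 30.5 and 40 in MO-control, below all limits.

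Ordered by ratio, the 8 names ran egfl7, cdh5, flt1, flt4, stab2, etv2, kdr and fli1a. The only spread available is that between spots of the same gene within an array, a pooled SD of 0.24 on the log2 scale at 48 hpf over 3446 features with several spots. Each neighbour in that order differed from the next by less than this SD, except kdr and fli1a, which were 0.52 apart. A value as low as that of fli1a or lower was found in 6.2% of all measured features, and the middle 95% of features ran from -0.83 to 0.79. The fli1a value therefore exceeds the spread between spots but lies inside the range that holds most features. The spread between embryos or injections is not known from these data.

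The sign of some of these ratios depends on the scaling. fli1a was below 0 under all 10 alternatives tried, from -0.64 to -0.10, and egfl7 was above 0 under all 10, from 0.28 to 0.85. cdh5 and flt1 also stayed above 0. Those of flt4, etv2, kdr and stab2 changed sign under at least 1 of the 10, centring on all spots among them. All 4 ratios were smaller than the SD between spots.

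**Figure D2:**
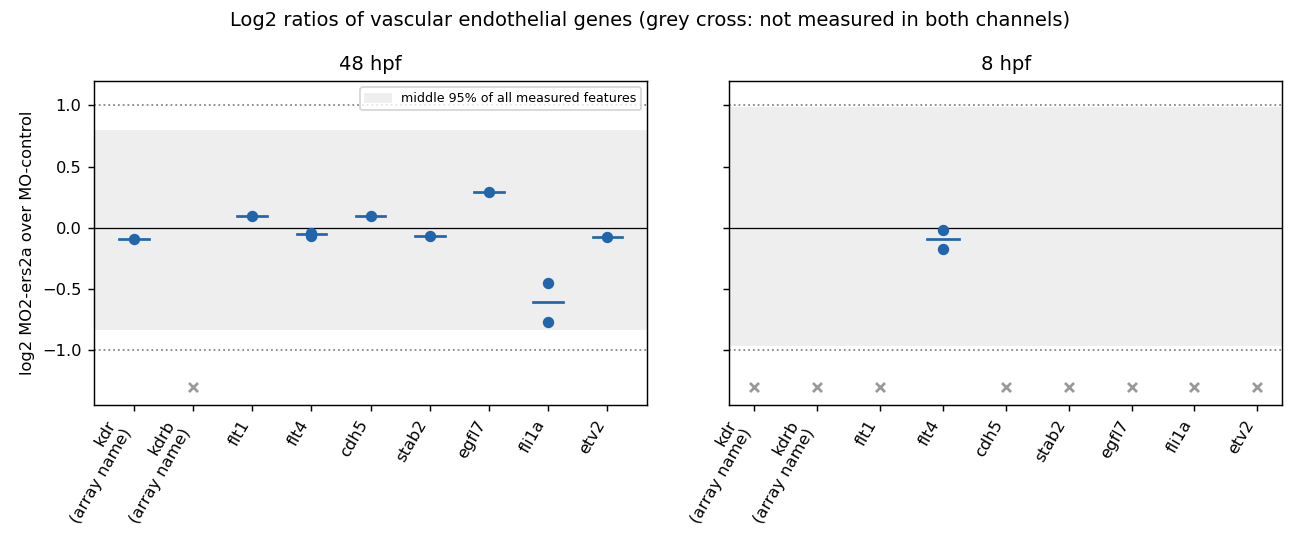
Log2 ratio of MO2-ers2a over MO-control (vertical axis) for each measured spot (points) and their median (bar) at 48 hpf (left) and 8 hpf (right). The grey band is the middle 95% of all measured features, dotted lines mark 2-fold, and grey crosses mark names not measured in both channels; at 48 hpf only fli1a, at -0.61, stands apart from the other names.

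Several spots can carry one name, and in these files repeated spots of a probe cannot be told from different probes. Of the 7 names with more than 1 spot, 5 (kdr, flt1, cdh5, fli1a and stab2) had measured and unmeasured spots side by side at 48 hpf. Both flt4 spots were measured, and neither kdrb spot was. The dim spots were left out of the medians above. With them included, the fli1a median was -0.27, and the count at 2-fold remained 0.

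At 8 hpf, only flt4 was measured in both channels. Its spots had signals of 185 and 66 in MO2-ers2a embryos, against 118 and 72 in MO-control embryos. The log2 ratios were -0.02 and -0.17, a median of -0.10, less than the pooled SD between spots of 0.32 at this time. That median depends on the scaling. It was -0.40 with centring on measured spots, -0.39 in the authors' deposited log ratios and -0.34 with spike-in scaling, all beyond this SD. With centring on all spots it was 0.17, and the stricter filter on dim spots left flt4 out. Of all 15354 measured features, 4.57% reached 2-fold at 8 hpf, and flt4 did not.

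Another 5 names passed the limit in Cy5 alone at 8 hpf, none passed in Cy3 alone, and 3 (cdh5, egfl7 and fli1a) passed in neither channel. The stab2 spot that passed read 97.5 in MO2-ers2a, against 58 in MO-control, just under the Cy3 limit. At the spot's own normalized levels that was 1.25-fold higher. The kdr spot that passed read 87.5 in MO2-ers2a and 58.5 in MO-control, 1.18-fold higher at its own levels. Neither fold is a lower bound, since the dim Cy3 level itself was used. Both folds are small, and the Cy3 limit was the higher of the pair in signal units, so passing in Cy5 alone is not read as an effect.

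For etv2 at 8 hpf the signal was 38.5 in MO2-ers2a and 50 in MO-control. The kdrb spot that passed had 39 in MO2-ers2a and 59.5 in MO-control, and the flt1 spot that passed had 30.5 in MO2-ers2a and 32.5 in MO-control. No fold is given for these, since the Cy5 level was not above the level taken for Cy3. In the gastrula, then, these arrays hold almost no ratio for endothelial receptors and regulators, and a difference in most of them was not detectable at this signal.

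Levels of single spots could also be set side by side between the times, after the average signals of both arrays were brought to one distribution. This again compares 1 array with 1 array, and the offset of 50 added in background correction shrinks the folds of dim spots. In MO2-ers2a embryos, egfl7 was at least 32.2-fold higher at 48 hpf than at 8 hpf, the fli1a spots at least 14.2-fold and 10.3-fold, and cdh5 at least 3.96-fold. The kdr spot was 5.52-fold, etv2 2.25-fold and stab2 2.21-fold higher. In MO-control embryos, the bounds were 21.2-fold for egfl7, 15.5-fold and 14.1-fold for fli1a, 2.97-fold for cdh5, 2.37-fold for etv2 and 2.18-fold for flt1. There kdr was 6.97-fold and stab2 2.90-fold higher, taken at the spots' own dim levels at 8 hpf, so these are not bounds. flt4 had small log2 differences, of 0.16 and 0.01 for its spots in MO2-ers2a embryos and of 0.18 and -0.10 in MO-control embryos. In MO-control embryos it was the only name measured at 8 hpf, so the other names could only come out higher there.

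By the median over spots, 6 of 9 names were 2-fold higher at 48 hpf in MO2-ers2a embryos, where 15.9% of all features were higher and 18.8% lower. The same held for 7 of 8 names in MO-control embryos, where 17.9% of all features were higher and 21.4% lower. No name was 2-fold lower in either group. In MO-control embryos every name but flt4 was dim at 8 hpf and entered only through its 48 hpf signal. Such a spot was kept only where it came out higher, so its direction was fixed by the filter. In MO2-ers2a embryos this applied to cdh5, fli1a, egfl7 and 1 flt1 spot. The shares over all features include features free to go either way, so the counts are not read against them. The flt1 spots disagreed in MO2-ers2a embryos. The spot measured at 48 hpf was at least 2.91-fold higher. The other, measured at 8 hpf only, was 1.23-fold lower at its own dim level at 48 hpf. The kdrb spot measured at 8 hpf only was 1.34-fold lower in the same way. Spots dim at 48 hpf were kept only where they came out lower, so the filter fixed the direction of these spots too. With a stricter filter on dim spots, the count in MO-control embryos was 3. The difference between morpholinos in these changes is the difference of the ratios at the 2 times, which exists for flt4 alone.

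**Figure D3:**
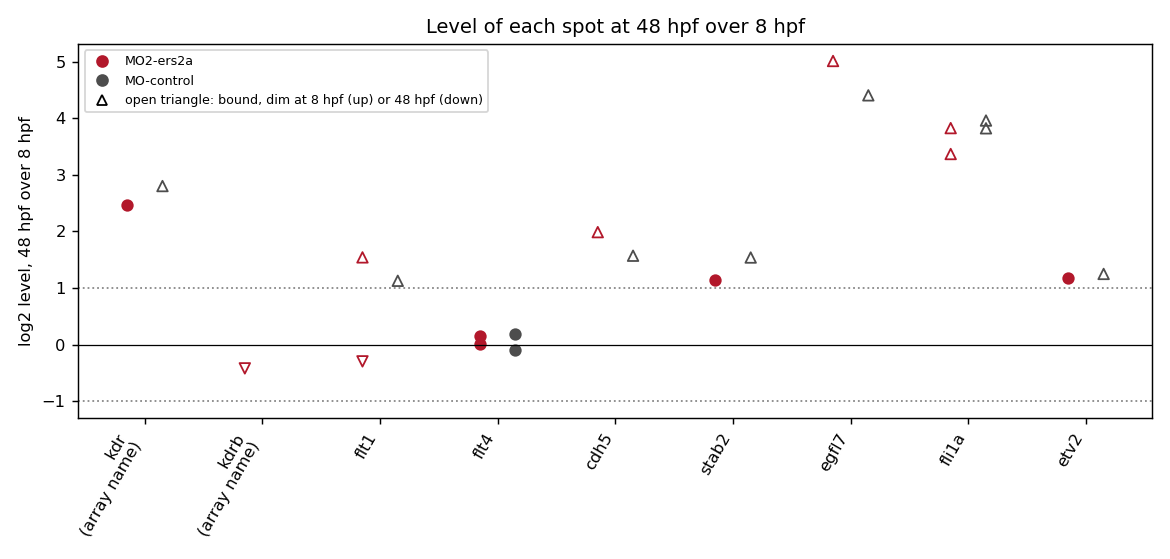
Log2 level at 48 hpf over 8 hpf (vertical axis) for each spot in MO2-ers2a (red) and MO-control (grey) embryos. Filled circles were measured at both times, and open triangles are spots dim at 8 hpf (pointing up) or at 48 hpf (pointing down). Triangles are bounds, or values at the spot's own dim level where that was the higher. In both groups egfl7 and fli1a lie highest and flt4 lies near 0.

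Around these receptors and regulators, 76 further genes in 5 lists cover the ligands, co-receptors, angiopoietin pathway, transcription factors and other surface and signalling proteins of vessels. Of these, 61 were on the arrays, 50 were measured at 48 hpf and 38 at 8 hpf. At 48 hpf, 27 of the 50 lay below 0, with a median of -0.06, and 1 was 2-fold lower and 0 were 2-fold higher, where 1.25% of all features were 2-fold lower and 1.27% higher. At 8 hpf, 26 of the 38 lay above 0, with a median of 0.11, and 0 reached 2-fold in either direction, while 2.32% of all features were 2-fold higher and 2.25% lower. That median was 0.67 with centring on all spots and -0.14 with spike-in scaling, where the median of all measured spots itself moved to 0.57 and -0.26. Relative to the array's own median, the median over the 5 lists pooled stayed between 0.10 and 0.20 at 8 hpf under the 10 alternatives. Single lists varied more. Their relative medians ran from -0.13 to 0.41 for surface and signalling genes and from -0.04 to 0.095 for transcription factors. For VEGF ligands and co-receptors they ran from -0.005 to 0.29, for artery, vein and Notch genes from 0.10 to 0.25, and for the angiopoietin and Tie list from 0.15 to 0.49. Over all features, 52.1% lay below 0 at 48 hpf and 47.8% above 0 at 8 hpf.

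In the transcription factor list at 48 hpf, 12 of 16 measured genes lay below 0, with a median of -0.33, or 0.20 with centring on all spots, where the median of all measured spots itself moved to 0.39. elk3, an ETS-family repressor expressed in vessels, was the 1 gene past 2-fold, at -1.02. Its single spot read 43 in MO2-ers2a, against 137 in MO-control, so the Cy5 signal was not far above its limit; spike-in scaling put it at -0.95 and centring on all spots at -0.97, both under 2-fold, the stricter filter left it out, and the authors' deposited value was -2.26. tal1, needed for blood and endothelial precursors, had 747 in MO2-ers2a and 808 in MO-control, a log2 ratio of -0.76 (-0.84 to -0.27 under the alternatives).

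Not every factor of the list stood low. sox7, which acts in the separation of arteries and veins, had 2 measured spots and a ratio of 0.17. fli1b, a relative of fli1a, stood at 0.12 (2 measured spots, 0.09 and 0.15), above 0 under all 10 alternatives, whereas fli1a stood at -0.61. In the same list at 8 hpf, 6 of 12 lay below 0, with a median of 0.00 and a range from -0.48 for erg to 0.50 for hhex. klf2a, a flow-responsive factor, was at -0.31 and prox1a, the lymphatic factor, at 0.30 at that time. The prox1a value at 8 hpf rested on 1 measured spot and ran from -0.07 to 0.55 under 9 alternatives. At 48 hpf the prox1a spots stood at -0.59 and -0.81. Their median of -0.70 was below 0 under all 10 alternatives.

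VEGF ligands and co-receptors had a median of -0.12 at 48 hpf over 9 genes. The highest was vegfd, a ligand of the lymphatic branch, at 0.67, followed by nrp2a at 0.14. The single vegfd spot read 230 in MO2-ers2a and 98.5 in MO-control, and the stricter filter left it out. Lowest were the neuropilin co-receptors nrp1a at -0.40 and nrp2b at -0.29. At 8 hpf the median was 0.15 over 6 genes, with nrp1a at 0.81 and nrp2b at 0.28 highest, and the principal ligand vegfaa at 0.09 and nrp2a at -0.05 lowest. In the angiopoietin and Tie list, tek, the partner receptor of Tie1, was at -0.29 at 48 hpf and 0.20 at 8 hpf, and angpt2b, an angiopoietin ligand, at 0.46 at 8 hpf. None of these reached 2-fold. The VEGF list's median at 48 hpf was below 0 under 6 of 10 alternatives and at 8 hpf under 2 of 10.

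Artery, vein and Notch genes had medians of 0.18 at 48 hpf and 0.19 at 8 hpf, over 7 genes each. At 48 hpf notch3, a receptor of the cells around arteries, stood at 0.33 and the Notch ligand dlc at 0.28. The lowest there were the arterial ligand dll4 at -0.08 and the chemokine receptor cxcr4a at 0.02. At 8 hpf the vein marker ephb4a was at 0.85 and dlc at 0.44, with cxcr4a at -0.20 and dll4 at -0.01 lowest.

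Other surface and signalling genes of endothelium had medians of 0.03 over 17 genes at 48 hpf and 0.11 over 11 at 8 hpf. At 48 hpf the tight junction gene cldn5a was at 0.63 and the guidance receptor robo4 at 0.32, against the apelin receptor aplnrb at -0.58 and the sphingosine phosphate receptor s1pr1 at -0.44. cldn5a reached 1.03 with centring on all spots. At 8 hpf aplnrb, then expressed in migrating mesoderm, was at 0.57 and ccm2, a gene of vessel integrity, at 0.46. The lowest were acvrl1, a BMP receptor of arteries, at -0.23 and crip2 at -0.22. With centring on all spots, the median of the 8 hpf array itself stood at 0.57. Under that setting, 4 of the 38 measured genes of the 5 lists exceeded 2-fold at 8 hpf: nrp1a at 1.33, hhex at 1.23, ephb4a at 1.42 and aplnrb at 1.42. Of all 15354 features, 2489 were 2-fold higher there, so this count is not above background. In the authors' deposited log ratios ephb4a, at 1.22, exceeded 2-fold too, where 705 of 15333 features were 2-fold higher.

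**Figure D4:**
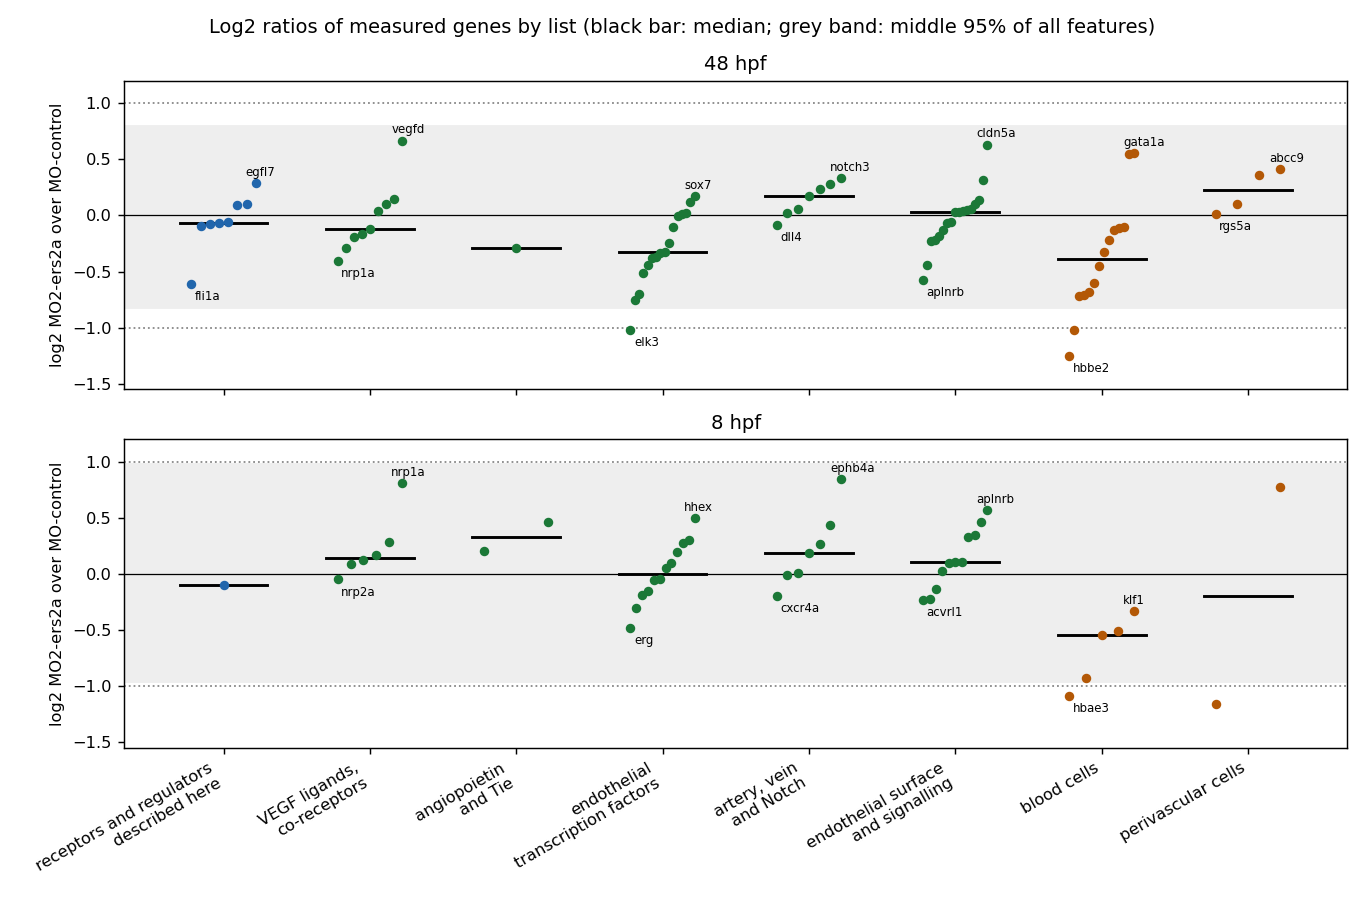
Log2 ratio of MO2-ers2a over MO-control (vertical axis) for each measured gene, by list, at 48 hpf (top) and 8 hpf (bottom), with black bars at the medians, the grey band at the middle 95% of all features and dotted lines at 2-fold; the highest and lowest gene of lists with more than 2 genes are named. At 48 hpf the transcription factors, with a median of -0.33, and the blood markers, with a median of -0.39, lie lowest.

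Blood cells arise beside endothelium and fill the vessels, and their markers stood low beside the transcription factors. Of 14 blood markers measured at 48 hpf, 12 lay below 0, with a median of -0.39 that ran from -0.64 to -0.02 under the alternatives. Their summed normalized signal over 22 spots was 307961 in MO2-ers2a and 337601 in MO-control embryos, most of it from globin spots. The globins hbbe2 at -1.25 and hbae5 at -1.02 were 2-fold lower (-0.57 and -0.59 as their highest value under the alternatives), while hbbe3, also a globin, stood at 0.55 (1.29 with centring on all spots) and gata1a, the factor that defines red cell precursors, at 0.56. The single gata1a spot read 230.5 in MO2-ers2a and 108.5 in MO-control, and the stricter filter left it out. The hematopoietic factor runx1 and the platelet lineage gene itga2b were not measured. At 8 hpf, all 5 measured blood markers lay below 0, with a median of -0.55, which ran from -0.79 to 0.02 under the alternatives. Of these, klf1 was barely measured. Its spot read 24.5 in MO2-ers2a and 60.5 in MO-control, against limits of 24.4 and 59.9. The other klf1 spot passed in Cy5 alone and stood at 0.38. The globin hbae3 stood lowest at -1.09, 2-fold lower, but at -0.49 with centring on all spots. lcp1 and coro1a, listed as white cell genes, stood at -0.93 and -0.51. klf1, listed as a red cell factor, stood at -0.33, or 0.94 in the authors' deposited log ratios. The lcp1 level was lower at 48 hpf than at 8 hpf, by log2 differences of -3.91 in MO2-ers2a and -4.24 in MO-control embryos. The coro1a and hbae3 levels were higher at 48 hpf in both groups. Whether these genes mark blood cells at 8 hpf, when mesoderm is only being laid down, was not tested. The summed signal of the 5 blood markers at 8 hpf was 22305 in MO2-ers2a and 42212 in MO-control. Most of both sums came from the single lcp1 spot, with log2 levels of 14.32 in MO2-ers2a and 15.26 in MO-control. The lcp1 ratio ran from -1.18 to -0.03 under the alternatives, so these sums describe lcp1 more than blood markers as a group.

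Perivascular markers, of the muscle-like cells that wrap vessels, had 4 measured genes at 48 hpf, all above 0, from rgs5a at 0.01 and acta2 at 0.10 to tagln at 0.36 and abcc9 at 0.41. rgs5a stayed above 0 under 7 of 9 alternatives and fell to -0.26 in the authors' deposited log ratios. The stricter filter left out rgs5a and abcc9 and kept 2 genes. The summed signal of the 4 genes was 1467 in MO2-ers2a and 1259 in MO-control. At 8 hpf acta2 was 2-fold lower at -1.16, but at -0.74 with centring on all spots. rgs5a stood at 0.77 at that time, and past 2-fold in the authors' deposited log ratios (1.41), with plain subtraction (1.08), an offset of 10 (1.05) and centring on all spots (1.14). Under these settings 705 of 15333 features, and 490, 477 and 2489 of 15354, were 2-fold higher. The single rgs5a spot read 233 in MO2-ers2a and 73.5 in MO-control, not far above the Cy3 limit of 59.9. The stricter filter left it out at 8 hpf too. The summed signal at 8 hpf rested on 2 spots, with sums of 419 in MO2-ers2a and 502 in MO-control. The defining markers pdgfrb and kcnj8 were not measured at either time. The receptors and regulators themselves summed to 6817 in MO2-ers2a and 7405 in MO-control over 10 spots at 48 hpf. The lower sum in MO2-ers2a came from the fli1a spots, with log2 levels of 9.69 and 10.15, against 10.47 and 10.60 in MO-control. Without fli1a, the sum of the other spots was higher in MO2-ers2a. That excess came from the single egfl7 spot, the brightest, at 11.34 against 11.05. Without egfl7 as well, the sum was slightly lower in MO2-ers2a. The part of blood and perivascular cells in the values of fli1a, tal1 and the other factors was not tested. In RNA of whole embryos, fewer cells of a type and less RNA per cell cannot be told apart.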

How the data were processed

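The authors deposited 1 scanner table per array, holding median intensity and median local background per spot and channel per the file headers, made with Agilent Feature Extraction per the submitters' processing notes. The deposited series matrix holds log10 values per spot. Over bright spots (7916 on the 48 hpf array, 8262 on the 8 hpf array) these followed the raw log2 ratio of Cy5 to Cy3, with Pearson r across spots of 0.990 and 0.986, so their direction is MO2-ers2a over MO-control. Exact zeros, 34.7% and 36.8% of values, were treated as not measured. Column medians were 0; the authors' dye normalization and centring were not stated.

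Background was corrected by normexp with an offset of 50, which understates the fold of dim spots. Loess was then run inside every array, control spots having weight 0 (limma 3.58.1, R 4.3.3). Background correction and loess were tested on simulated spots. A true log2 change of 1.5 came back at a median of 1.26 at 48 hpf and 1.27 at 8 hpf. Of such changes, 80% at 48 hpf and 78% at 8 hpf were called 2-fold in the right direction. The simulated noise was equal on both arrays, whereas the SD between spots was 0.24 at 48 hpf and 0.32 at 8 hpf. Changes were placed on spots above the Cy3 limit, and no Cy5 limit or gene median was applied. These shares are therefore not the sensitivity of the gene values given above. Later steps used Python 3.11.15 with pandas 2.3.3. The detection limit was the mean plus 2.6 SD of negative control signals after background subtraction. Each gene was given the median of its measured spots. Levels between times used Aquantile scaling, and a dim side was replaced by the higher of its own level and the lowest measured level of that channel, which leaves bounds open to dye bias. Where a dim spot's own level was the higher, the value is not a bound. Array names were updated through a RefSeq gene table of assembly GRCz12tu, used for names only. Of the spots that are not controls, 23205 found no match and 176 were ambiguous. Alternatives were plain subtraction, an offset of 10, 2 centrings without loess, spike-in scaling, the authors' log ratios, 2 other filters on dim spots, and the mean or brightest spot per gene.

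The number of arrays, 1 a time, limits the precision. The members, lists and rules were chosen with earlier results of these data known. All members are named. Of each further list, the 2 highest and 2 lowest measured genes per time and every gene past 2-fold are named. Marker genes named as not measured (runx1, itga2b, pdgfrb, kcnj8) and the s1pr1 and hhex values in the closing section fall outside that rule in part and were chosen after their values were seen. No sequences were used here.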

Additional observations from a re-analysis of the deposited data

Results flagged for a closer look

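Among the 36 genes of the further vascular lists measured at both times, 4 had log2 ratios beyond the pooled SD between spots on opposite sides of 0. All 4 lay below 0 at 48 hpf and above 0 at 8 hpf. The share of all 13178 features measured at both times that meet this rule is not given, so the count cannot be set against background. nrp1a stood at -0.40 at 48 hpf and 0.81 at 8 hpf, a difference of -1.21. aplnrb stood at -0.58 at 48 hpf and 0.57 at 8 hpf, a difference of -1.15. s1pr1 stood at -0.44 at 48 hpf and 0.35 at 8 hpf, a difference of -0.79, and hhex at -0.25 at 48 hpf and 0.50 at 8 hpf, a difference of -0.75. The hhex value at 48 hpf barely passed the SD of 0.24, and the s1pr1 value at 8 hpf barely passed that of 0.32, with its spots at 0.15 and 0.55. With 1 array a time, the differences of these 4 genes were not tested. With centring on all spots, nrp1a, s1pr1 and hhex lay above 0 at 48 hpf as well, at 0.09, 0.12 and 0.23.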

How the results depend on the processing

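No paired analysis was possible because each time has 1 array and the labels give no replicate numbers; no replicate could be left out either. None of the 10 alternatives brought a receptor or regulator to 2-fold at either time. In these alternatives, the authors' log ratios were taken only for spots that passed the limits used here. The egfl7 spot, under both limits at 8 hpf, stood at -1.04 in the authors' values at that time and was left out. Centring on all spots without loess gave all measured spots a median of 0.39 at 48 hpf, against 0.57 at 8 hpf. It moved the median of the receptors and regulators at 48 hpf to 0.35. The median over the pooled wider lists moved to 0.34 at 48 hpf and 0.67 at 8 hpf. Relative to the array's own median, the receptors and regulators stayed between -0.09 and -0.04 at 48 hpf under the 10 alternatives. Spike-in scaling, which takes the middle of 10 spike-in probes as equal because the files do not give their amounts, put the median of the whole array at 0.06 at 48 hpf, against -0.26 at 8 hpf. At 8 hpf, 9 names had a value with no filter on dim spots and 0 with the stricter filter. The stricter filter left 3 names 2-fold higher at 48 hpf in MO-control embryos, against 7. Over all features, 420 were past 2-fold at 48 hpf (212 higher, 208 lower), against 825 with plain subtraction (297 and 528), 707 with an offset of 10 (282 and 425), 712 with centring on measured spots (278 and 434), 1338 with centring on all spots (1254 and 84) and 1272 in the authors' deposited log ratios (489 and 783). At 8 hpf, 702 were (356 and 346), against 1092 with plain subtraction (490 and 602), 1115 with centring on measured spots (482 and 633), 2585 with centring on all spots (2489 and 96) and 1735 in the authors' deposited log ratios (705 and 1030). Spike-in scaling split the 2-fold features as 259 higher and 153 lower at 48 hpf and as 182 and 692 at 8 hpf. Low signal over background limits 8 of 9 names at 8 hpf and kdrb at both times.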
